A study of Mus musculus with 42 samples.

Results

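Genes of neutrophils and of the chemokines that attract them, 10 in all, were followed through 42 mouse tumors: the calprotectin subunits S100a8 and S100a9, the receptors Csf3r and Cxcr2, the granule protease Mmp9, the secreted protein Retnlg and the CXCR2 ligands Cxcl1, Cxcl2, Cxcl3 and Cxcl5. The genes were taken by name, 10 of the 26811 in the count table, with earlier results of these data known. The question put to them was how they stood after PD-1 blockade and, above all, whether blocking GM-CSF changed that.

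The tumors were grown from MC38, a colon carcinoma line of C57BL/6 origin, injected under the skin of female CC075/UncJ x C57BL/6J F1 mice aged 8 to 12 weeks, and poly(A) RNA of the whole tumor was sequenced. A host of this kind carries 1 chromosome set of the Collaborative Cross strain and 1 of C57BL/6J. Every 3 days from engraftment until a tumor measured 75 to 110 mm3, mice received either blocking antibody or the matching isotype antibodies. A single 200 µg injection of aPD1 or of its isotype followed, and tumors were taken 48 h later. The isotype control group (n = 5) had isotype antibodies throughout. The aPD1 group (n = 6) had isotype antibodies in place of the blocking ones. The aPD1 + aGMCSF group (n = 9) had 100 µg of an antibody to the cytokine GM-CSF per injection, and the aPD1 + aIL2RB group (n = 11) had 200 µg of an antibody to IL2RB, a chain shared by the IL-2 and IL-15 receptors. The aPD1 + aGMCSF + aIL2RB group (n = 11) had both. No group analysed here received a blocking antibody without aPD1, and all hosts were of 1 F1 cross bearing 1 tumor line.

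Neutrophils are short-lived phagocytes made in the bone marrow under G-CSF, which acts through the receptor encoded by Csf3r. CXCR2 on their surface binds the ELR-type CXC chemokines, which in mice include CXCL1, CXCL2, CXCL3 and CXCL5, and these chemokines are made by stroma, macrophages, tumor cells and neutrophils themselves after signals such as IL-1 and TNF. GM-CSF supports the survival and activation of neutrophils and of monocytes and macrophages. S100A8 and S100A9 form a calcium-binding heterodimer that fills the neutrophil cytosol, and MMP9 is stored in neutrophil granules but is also secreted by macrophages, tumor cells and other cells.

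Levels are given as CPM, the count divided by the composition-corrected library total and brought to the usual common size. Totals were 7155486 counts in the smallest library, aPD1 + aGMCSF + aIL2RB replicate 4, and 15109228 to 24101674 in the others, so a gene with no count may have had up to 0.122 to 0.395 CPM (3 counts). Most of the 10 genes were near that floor. Counts per tumor ran from 0 to 36 for S100a8, 0 to 42 for S100a9, 0 to 43.6 for Cxcr2, 0 to 28 for Cxcl5, 0 to 94 for Cxcl3 and 0 to 6 for Retnlg, whereas Cxcl2 had 13 to 288, Cxcl1 51 to 296, Csf3r 92 to 981 and Mmp9 1755 to 11290. Retnlg did not pass the filter on low counts and was not tested, which left 9 genes. Markers of neutrophils were few in counts or absent: Ly6g had no count in any tumor of 4 groups and in 10 of the 11 aPD1 + aIL2RB tumors, with at most 6 counts in the other, and the granule genes Mpo, Camp and Ngp reached at most 2, 3 and 8 counts. Other granule and maturation genes reached more in single tumors, up to 70 counts for Lcn2, 54 for Ctsg, 50 for Padi4, 33 for Ltf and 22 for Mmp8. The 10 genes are therefore described gene by gene and not as a measure of neutrophil number, and in whole tumors fewer cells of a type cannot be told apart from less RNA per cell.

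Other features of the tumors bear on these small numbers. Within each group the tumors were divided by replicate number into a first set of low numbers and a second set of high ones (22 and 20 tumors). The first set ran up to replicate 2 in isotype control, 3 in aPD1, 5 in aPD1 + aGMCSF and 6 in the groups given aIL2RB. No source used here gives these sets a name, and 25.1% of tested genes differed between them with treatment in the model. On the first principal component (18.9% of variance) 4 first-set and 16 second-set tumors lay above 0. In 4 tumors (aPD1 replicates 2 and 3, aPD1 + aIL2RB replicates 6 and 11) the skin genes Krt5, Krt14, Krt1, Trp63 and Dsp summed to over 10 CPM, and 2 tumors (aPD1 replicate 3 and aPD1 + aGMCSF + aIL2RB replicate 11) had hemoglobin transcripts (Hbb-bs and Hba-a2) over 500 CPM. Results that rest on aPD1 replicate 3 are given with and without it. Counts of Cxcl2 and Cxcl3 came out fractional in 3 tumors, yet added up to whole numbers in each of the 42 (within 0.001), so these neighbouring genes shared a few reads, and Cxcr2 counts were not whole in 36 tumors, so part of its reads were shared with a gene that was not identified.

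**Figure D1:**
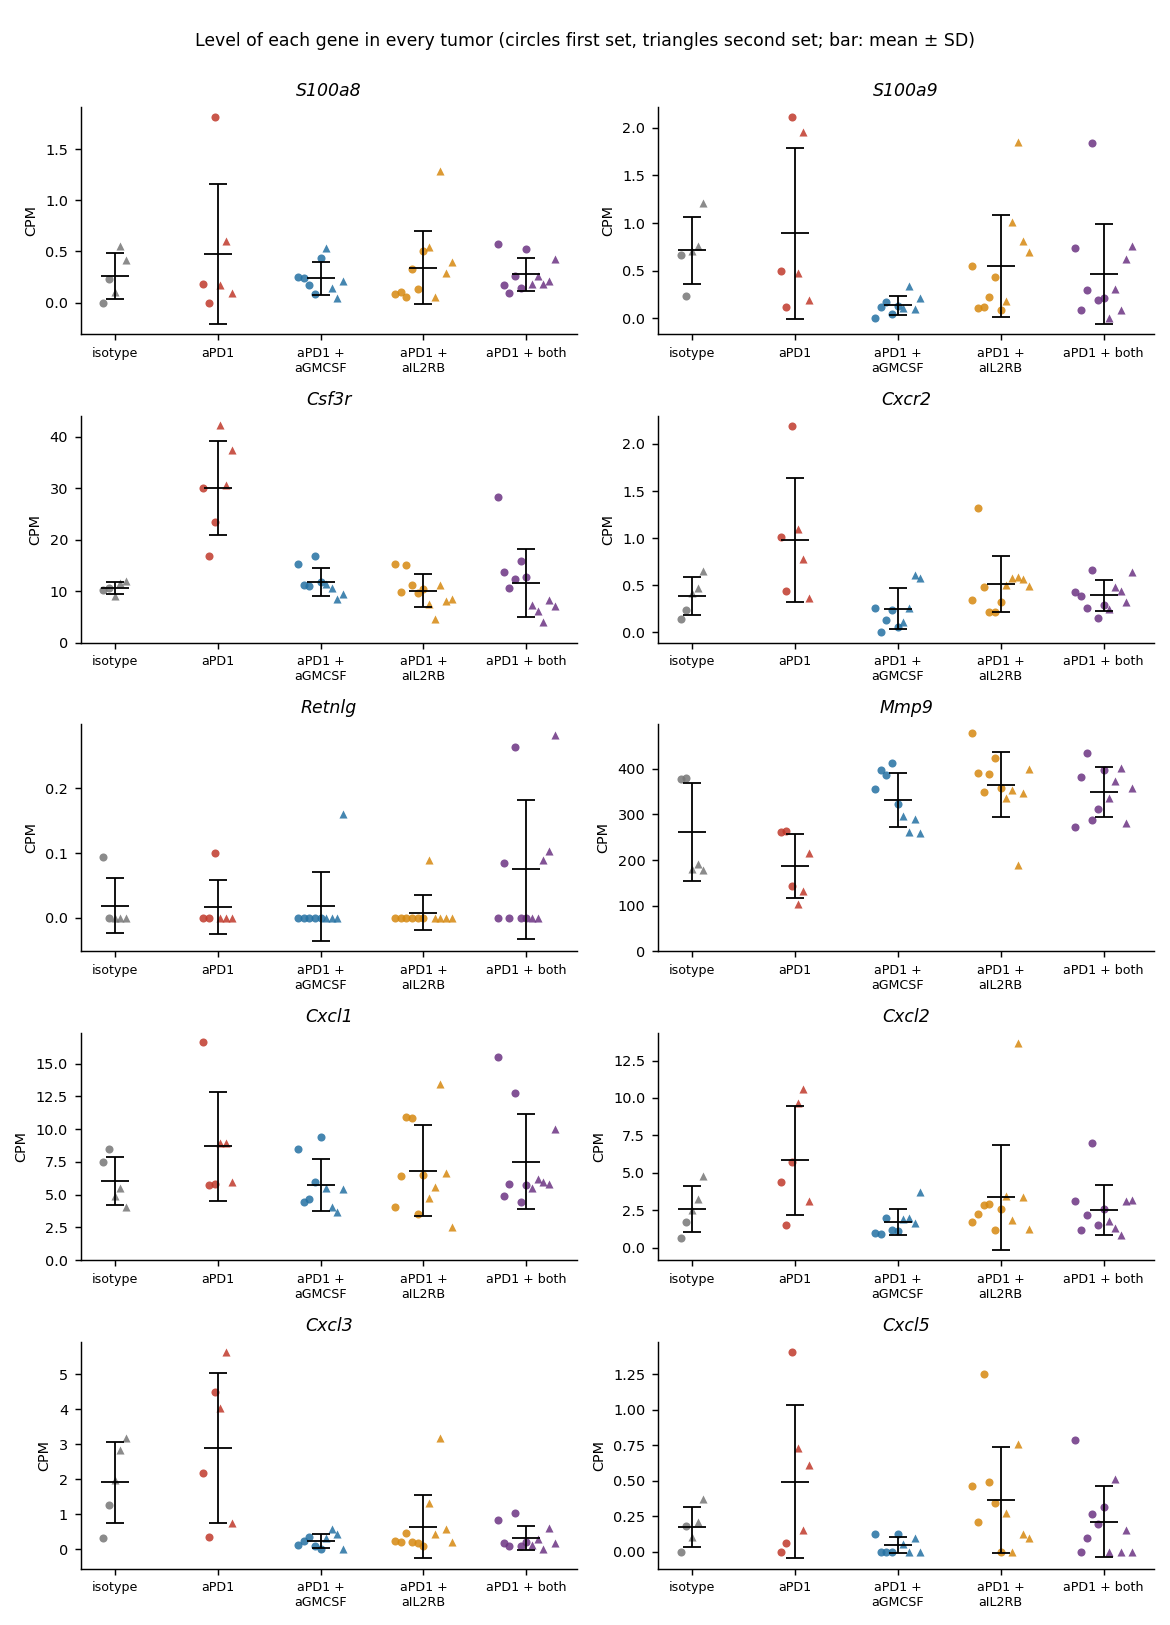
Level of each of the 10 genes in CPM (vertical axes, linear, each with its own range) in every tumor of the 5 groups, where "aPD1 + both" is aPD1 + aGMCSF + aIL2RB. Circles are first-set tumors, triangles second-set tumors and bars the mean ± SD; Csf3r stood at 16.9 to 42.2 CPM in the 6 aPD1 tumors and at no more than 16.9 CPM in the 9 aPD1 + aGMCSF tumors.

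Adding aGMCSF to aPD1 went with lower levels of most of the 10 genes. Of the 9 tested, 6 fell (Csf3r, Cxcr2, S100a9, Cxcl2, Cxcl3 and Cxcl5), 1 rose (Mmp9) and 2 did not pass the test (S100a8 and Cxcl1), by edgeR's quasi-likelihood test with Benjamini-Hochberg adjustment over 16932 genes. Of all tested genes 13.5% passed in this comparison, 8.75% downward and 4.77% upward. The median log2 fold change was -1.77 over the 9 genes and 0.0066 over all genes tested. The CXCR2 ligands Cxcl3 and Cxcl5 had the largest fitted changes, 11.6-fold and 10.8-fold lower, both on few counts.

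Csf3r (ENSMUSG00000028859, chromosome 4, 126024550 to 126044440 of GRCm38, plus strand), the G-CSF receptor, was the best counted receptor. Its lowest, median and highest levels were 16.9, 30.3 and 42.2 CPM in the aPD1 tumors and 8.56, 11.3 and 16.9 CPM in the aPD1 + aGMCSF tumors. The groups did not overlap, the highest aPD1 + aGMCSF tumor (16.87 CPM) lying just under the lowest aPD1 tumor (16.91 CPM); 2.2% of tested genes were lower without overlap. This separation depended on the scaling: with CPM by plain library size aPD1 + aGMCSF replicate 4 (17.7 CPM) exceeded the lowest aPD1 tumor (16.9 CPM). Csf3r fell 2.55-fold, by -1.35 on the log2 scale (SE 0.25, adjusted p = 0.000374, edgeR).

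Cxcr2 (ENSMUSG00000026180, chromosome 1, 74153989 to 74161246, plus strand), the receptor for all 4 ligands described here, was at 0.37 to 2.19 CPM with a median of 0.897 in the aPD1 tumors and at 0 to 0.611 CPM with a median of 0.235 after aPD1 + aGMCSF. All 9 tumors given aGMCSF lay under the aPD1 median and 7 of them under the lowest aPD1 tumor. Cxcr2 changed by a log2 fold of -1.93 (SE 0.45, adjusted p = 0.00348, edgeR). The highest aPD1 value was that of replicate 3, and without this tumor the change was -1.5 (adjusted p = 0.0247). In the sets alone it did not pass, at -3.11 (adjusted p = 0.0587) in the first and -0.90 (adjusted p = 0.247) in the second.

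S100a9 (ENSMUSG00000056071, chromosome 3, 90692632 to 90695721, minus strand) and S100a8 (ENSMUSG00000056054, chromosome 3, 90668978 to 90670035, plus strand) lie within 26.7 kb and encode the subunits of one protein complex, yet only S100a9 passed. S100a9 was at 0.12 to 2.11 CPM (median 0.485) in the aPD1 tumors and at 0 to 0.335 CPM (median 0.121) after aPD1 + aGMCSF, with 93 counts over 6 tumors against 24 over 9. Every tumor given aGMCSF was under the aPD1 median. On the log2 scale S100a9 changed by -2.62 (SE 0.70, adjusted p = 0.00897, edgeR), and -2.13 without aPD1 replicate 3 (adjusted p = 0.0444).

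S100a8 was at 0 to 1.81 CPM (median 0.179) in the aPD1 tumors and at 0.0501 to 0.537 CPM (median 0.214) after aPD1 + aGMCSF, so the medians stood in the opposite order to the means (0.477 ± 0.684 and 0.236 ± 0.157, SD, n = 6 and 9). The high mean of the aPD1 group came from replicate 3, with 36 of the group's 53 counts. The log2 fold change of -1.02 (95% interval -2.31 to 0.27, adjusted p = 0.33, edgeR) became 0.22 without that tumor. Whether the S100a9 change exceeded that of S100a8 was not tested.

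The 4 ligand genes lie in one cluster of 146.6 kb on chromosome 5 of GRCm38, all on the plus strand: Cxcl5 (ENSMUSG00000029371, 90759360 to 90761624), Cxcl3 (ENSMUSG00000029379, 90786103 to 90789600), Cxcl1 (ENSMUSG00000029380, 90891241 to 90893115) and Cxcl2 (ENSMUSG00000058427, 90903871 to 90905938), with Ppbp, Pf4 and Cxcl15 between Cxcl5 and Cxcl1. The sequences just before the start sites of 3 of them are shown because these 3 share a 10-base run, GGGAATTTCC, which has the form of a binding site for NF-κB, the factor through which IL-1 and TNF act on chemokine genes. Capitals mark that run and, in Cxcl3, the TATAAA box. The stretches are 5′ to 3′ on the plus strand of RefSeq's GRCm38.p6, chr5:90891125-90891240 for Cxcl1, chr5:90903779-90903870 for Cxcl2 and chr5:90785981-90786100 for Cxcl3.
Cxcl1: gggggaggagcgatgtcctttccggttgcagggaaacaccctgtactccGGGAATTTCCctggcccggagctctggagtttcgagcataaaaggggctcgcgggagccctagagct
Cxcl2: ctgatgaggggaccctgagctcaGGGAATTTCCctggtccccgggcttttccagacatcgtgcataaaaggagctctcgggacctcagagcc
Cxcl3: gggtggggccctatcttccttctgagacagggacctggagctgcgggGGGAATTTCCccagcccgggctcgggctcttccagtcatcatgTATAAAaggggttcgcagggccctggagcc

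The run starts 71 bases before the RefSeq start site of Cxcl1, 97 bases before that of Cxcl2 and 73 bases before that of Cxcl3. The Cxcl1 and Cxcl2 stretches shown end just before the gene starts given above, which lie before the RefSeq start sites. In these stretches fewer bases therefore follow the run than the distances state. The run was read from the Cxcl1 window itself, so its match there was given in advance. Only this exact run was searched, and other forms of such a site were not counted. Searched on both strands in windows of 250 bases before to 50 bases after each start, GGGAATTTCC was present in 29 of 32851 promoters (0.0883%), and TATAAA in 13.6%. Windows were at hand for 8 of the 10 genes (not for Mmp9 and Cxcl5), and among these the run was only in those of the 3 ligands, Cxcl1 included. S100a8 had TATAAA 30 bases before its start, as had Cxcl3, and S100a9 had it at its start. These are matches of letters, and no binding was measured here.

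Cxcl3 was at 2.17, 0.36, 4.48, 4.04, 5.64 and 0.75 CPM in aPD1 replicates 1 to 6, and at 0 to 0.575 CPM (median 0.243) after aPD1 + aGMCSF, with no count in 2 of the 9 tumors. All 9 lay under the aPD1 median and 7 under its lowest tumor, replicate 2. Cxcl3 changed by -3.54 on the log2 scale (SE 0.69, adjusted p = 0.000623, edgeR), and the value stayed between -3.81 and -3.24 when any single tumor of either group was left out. In the fit of the first-set tumors alone, all groups together, the Cxcl3 change was -3.78 and did not pass (adjusted p = 0.0556, edgeR).

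Cxcl2 was at 1.5 to 10.6 CPM (median 5.06) in the aPD1 tumors and at 0.911 to 3.69 CPM (median 1.65) after aPD1 + aGMCSF. Again all 9 tumors were under the aPD1 median, and the ranges overlapped. Cxcl2 fell 3.4-fold, a log2 change of -1.77 (SE 0.46, adjusted p = 0.00731, edgeR).

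Cxcl5 was at 0, 0.06, 1.41, 0.73, 0.15 and 0.61 CPM in aPD1 replicates 1 to 6 and at no more than 0.123 CPM after aPD1 + aGMCSF, where 5 of 9 tumors had no count and the group held 7 counts in all against 61. In the fit Cxcl5 changed by -3.43 (log2; SE 0.95, adjusted p = 0.0115, edgeR). It passed with each single tumor left out except aPD1 replicate 3, the highest, without which it was -2.81 (adjusted p = 0.0513). DESeq2 gave no adjusted p for Cxcl5.

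Cxcl1, the most abundant of the ligands per length, moved least. It was at 5.76 to 16.6 CPM (median 7.45) after aPD1 and at 3.7 to 9.37 CPM (median 5.4) after aPD1 + aGMCSF, overlapping ranges. Its log2 fold change of -0.60 (95% interval -1.19 to -0.0080, SE 0.30) did not pass (unadjusted p = 0.0535, adjusted p = 0.189, edgeR). The interval, which uses the normal quantile, just left out 0, although the unadjusted p of the test was above 0.05. Without aPD1 replicate 1, the highest, the change was -0.31.

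Mmp9 (ENSMUSG00000017737, chromosome 2, 164940780 to 164955850, plus strand) went the other way. It was at 103 to 264 CPM (median 179) after aPD1 and at 259 to 411 CPM (median 322) after aPD1 + aGMCSF, and 7 of the 9 tumors given aGMCSF were above the highest aPD1 tumor. Mmp9 rose 1.78-fold, by 0.83 on the log2 scale (SE 0.19, adjusted p = 0.00235, edgeR). Its ranges just overlapped; 0.656% of tested genes were higher without overlap. By plain library size they did not overlap, the aPD1 tumors reaching 264 CPM and the others starting at 268 CPM. Retnlg (ENSMUSG00000022651, chromosome 16, 48872621 to 48874496, plus strand), a resistin-like protein of mature neutrophils, had no count in 5 of 6 aPD1 tumors and 8 of 9 aPD1 + aGMCSF tumors, so no difference was detectable at this depth.

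**Figure D2:**
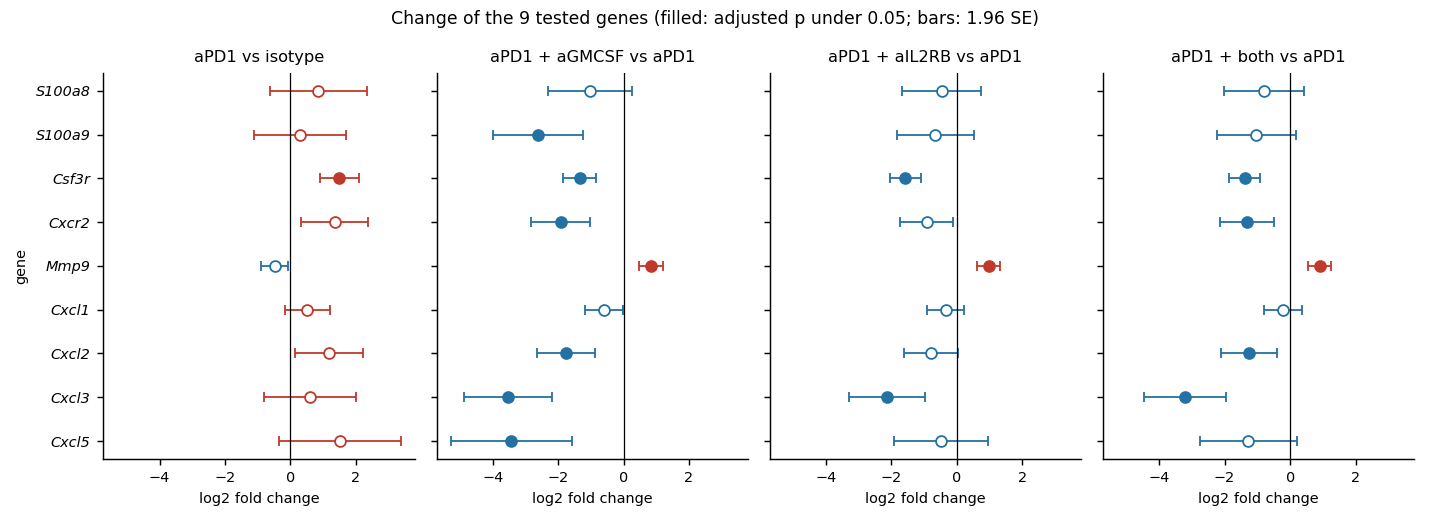
Fitted log2 fold change (horizontal axes) of the 9 tested genes in 4 comparisons, with bars for the 95% interval; filled points passed an adjusted p of 0.05, red points are above 0 and blue below, and "both" is aGMCSF + aIL2RB. With aGMCSF 7 of 9 genes passed, with aIL2RB 3 and with both 5, all against the same 6 aPD1 tumors, where 13.5%, 27.4% and 27.4% of all tested genes passed.

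How the genes stood after aPD1 without a blocking antibody was read from aPD1 against isotype control. Only Csf3r passed among the 9 genes, rising from 10.2, 10.7, 9.07, 11.6 and 12 CPM in isotype control replicates 1 to 5 to 30.1 ± 9.15 CPM (SD, n = 6) after aPD1, with no overlap (3.37% of tested genes were higher without overlap). Csf3r rose by 1.49 on the log2 scale (SE 0.30, adjusted p = 0.00211, edgeR), 1 of 9 genes, where 8.71% of all tested genes passed, 6.17% upward and 2.54% downward. In the first set alone it was 1.16 and did not pass (adjusted p = 0.179). DESeq2 likewise called 1 of the genes. Markers of leukocytes moved with it: Ptprc rose by 0.97 (adjusted p = 0.013, edgeR), and all 6 macrophage markers (median 0.64; summed level 1246 to 1466 CPM in isotype control and 1517 to 2660 CPM after aPD1) and all 3 GM-CSF receptor genes rose. Their part in the Csf3r rise was not tested.

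The other 8 did not pass. Cxcr2 (log2 fold change 1.35, SE 0.52, adjusted p = 0.0978, edgeR) and Cxcl2 (1.17, SE 0.53, adjusted p = 0.165) had intervals above 0, and Mmp9 had one below 0 (-0.49, SE 0.21, adjusted p = 0.141). With Csf3r, 4 of the 9 genes had an unadjusted p under 0.05, as had 24.1% of all tested genes. S100a9 differed little between the groups, at 0.714 ± 0.35 CPM (SD, n = 5) in isotype control and 0.891 ± 0.899 CPM (SD, n = 6) after aPD1. S100a8, Cxcl1, Cxcl3 and Cxcl5 had log2 fold changes of 0.85, 0.51, 0.59 and 1.51, each with an interval that held 0. Without aPD1 replicate 3 the changes were -0.39 for S100a8, -0.19 for S100a9, 0.92 for Cxcr2 and 0.88 for Cxcl5, without aPD1 replicate 1 that of Cxcl1 was 0.22, without aPD1 replicate 5 that of Cxcl3 was 0.29, and without isotype control replicate 1 that of Mmp9 was -0.32. Cxcl3 was thus already present without aPD1, at 0.33, 1.28, 1.99, 2.83 and 3.18 CPM in the isotype tumors.

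Set directly against the isotype control tumors, aPD1 + aGMCSF gave no call by edgeR among the 9 genes, and none over all 16932 (0% called; 938 genes, 5.54%, at an unadjusted p under 0.05). DESeq2 called none of the 9 either, and 2 had an unadjusted p under 0.05. These were Cxcl3, at 0.239 ± 0.202 CPM (SD, n = 9) against 1.92 ± 1.16 CPM in isotype control (n = 5), which is -2.95 on the log2 scale (adjusted p = 0.388, edgeR), and S100a9, at 0.136 ± 0.0978 against 0.714 ± 0.35 CPM, a change of -2.32 (adjusted p = 0.701). None of the 9 separated without overlap (0.148% of tested genes were lower and 0.0945% higher without it). Csf3r differed by 0.14 with a 95% interval of -0.40 to 0.68. In the order of group means, Csf3r had aPD1 at 30.1 CPM above aPD1 + aGMCSF (11.8), aPD1 + aGMCSF + aIL2RB (11.5), isotype control (10.7) and aPD1 + aIL2RB (10.1), and no neighbours among the last 4 differed beyond their spread.

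With aIL2RB added to aPD1 in place of aGMCSF, 3 of the 9 genes passed, where 27.4% of all tested genes did. Csf3r fell to 4.64 to 15.4 CPM (median 9.9), below every aPD1 tumor (2.98% of tested genes were lower without overlap), by -1.57 on the log2 scale (SE 0.24, adjusted p = 3.21e-06, edgeR). Cxcl3 fell to 0.0911 to 3.18 CPM (median 0.254), a change of -2.14 (SE 0.60, adjusted p = 0.00593) that did not pass in the second set alone (-1.59, adjusted p = 0.129). Mmp9 rose to 190 to 478 CPM (median 357), a change of 0.97 (SE 0.18, adjusted p = 7.48e-05), with 10 of 11 tumors above the highest aPD1 tumor (1.22% of tested genes were higher without overlap). In the same comparison Ptprc fell by 1.29 on the log2 scale, 5 of 6 macrophage markers fell (summed level 1042 to 1326 CPM against 1517 to 2660 CPM after aPD1), and of 5 fibroblast markers 4 rose and 1 fell (3853 to 6034 CPM against 2890 to 3660 CPM). The part of these cells in the results was not tested.

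One tumor of this group, aPD1 + aIL2RB replicate 9, stood apart in several of the genes at once. It had the group's highest S100a8 (1.28 CPM), S100a9 (1.85), Cxcl1 (13.4), Cxcl2 (13.7) and Cxcl3 (3.18) and its lowest Mmp9 (190). Without it, Cxcl2 passed as well (log2 fold change -1.31, adjusted p = 0.00534, edgeR), against -0.79 (adjusted p = 0.174) with it, and without aPD1 replicate 5 the change was -0.54 (adjusted p = 0.429). Without aPD1 + aIL2RB replicate 2, which had the group's highest Cxcr2 (1.32 CPM), Cxcr2 passed at -1.17 (adjusted p = 0.029), against -0.93 (adjusted p = 0.092) with it, and without aPD1 replicate 3 the change was -0.50 (adjusted p = 0.437).

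With both antibodies added to aPD1, 5 of the 9 genes passed (27.4% of all tested genes, 14.3% downward and 13.1% upward; 37.4% at an unadjusted p under 0.05). Cxcl3 fell to 0 to 1.05 CPM (median 0.188; log2 fold change -3.21, SE 0.64, adjusted p = 0.000183, edgeR), Csf3r to 4.14 to 28.3 CPM (median 10.6; -1.39, SE 0.24, adjusted p = 2.46e-05; not passing in the first set alone, at -0.58), Cxcr2 to 0.152 to 0.658 CPM (median 0.389; -1.32, SE 0.42, adjusted p = 0.0157) and Cxcl2 to 0.846 to 6.98 CPM (median 2.16; -1.26, SE 0.43, adjusted p = 0.0244). Mmp9 rose to 273 to 434 CPM, above every aPD1 tumor (1.13% of tested genes were higher without overlap), by 0.91 (SE 0.18, adjusted p = 0.0002). By plain library size its ranges overlapped, from 262 CPM against up to 264 CPM. Ptprc (-0.98) and 5 of 6 macrophage markers (876 to 1861 CPM summed) fell here too, 4 of 6 keratinocyte markers fell and 4 of 5 fibroblast markers rose (4425 to 6139 CPM summed). Of 6 monocyte markers, Ly6c2, Plac8 and Ccr2 fell and Fn1 and Vcan rose both with aIL2RB and with both antibodies. The median log2 fold change of the 6 was -0.10 with aIL2RB and -0.18 with both. Their summed level went the other way, at 1190 to 1796 CPM after aPD1, 1993 to 3240 CPM with aIL2RB and 2351 to 3087 CPM with both. The sum is thus not a measure of the markers that fell. The part of all these markers in the results was not tested either. The Cxcr2 call ended without aPD1 replicate 3 (-0.89, adjusted p = 0.139), and the Cxcl2 call ended without aPD1 replicate 4 (-1.05, adjusted p = 0.0952) or replicate 5 (-1.01, adjusted p = 0.101). Over the other alternatives run, Cxcr2 ranged from -1.81 to -0.76 and Cxcl2 from -1.94 to -0.48, and neither passed in every one. Mean Cxcl2 went from 3.88 to 2.92 CPM in the first set and from 7.78 to 2.04 CPM in the second.

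Between the aPD1 + aGMCSF + aIL2RB tumors and the aPD1 + aIL2RB tumors none of the 9 genes passed by edgeR or DESeq2, and none had an unadjusted p under 0.05 (0.00591% of all tested genes passed, 7.16% at an unadjusted p under 0.05). Their fitted changes were -1.08 for Cxcl3, -0.78 for Cxcl5, -0.47 for Cxcl2, -0.39 for Cxcr2, -0.38 for S100a9, -0.32 for S100a8, -0.06 for Mmp9, 0.13 for Cxcl1 and 0.19 for Csf3r. Against isotype control, aPD1 + aGMCSF + aIL2RB lowered 1 of the 9, Cxcl3 (-2.63, SE 0.67, adjusted p = 0.0113, edgeR), where 10.2% of all tested genes passed, 5.69% upward and 4.51% downward. In that comparison 4 of 5 fibroblast markers and 2 of 6 monocyte markers were higher, and their part in it was not tested. Between aPD1 + aIL2RB and isotype control none of the 9 passed by edgeR (3.2% of all tested genes did, 1.7% upward), and Cxcl3 (-1.55) and Mmp9 (0.48) had an unadjusted p under 0.05, as had 18.1% of all tested genes; DESeq2 was not run for these 2 comparisons. Set directly against each other, aPD1 + aIL2RB and aPD1 + aGMCSF differed in none of the 9 genes by edgeR (1.52% of all tested genes passed), and 5 of the 9 had an unadjusted p under 0.05, as had 13.5% of all tested genes; aPD1 + aGMCSF + aIL2RB and aPD1 + aGMCSF also differed in none (2.13% of all tested genes passed), with 2 of the 9 at an unadjusted p under 0.05, as had 17.3% of all tested genes. DESeq2 was not run for these either.

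Whether aGMCSF acted differently with and without aIL2RB was tested as an interaction, taken as the change in the presence of aIL2RB minus the change in its absence. It passed for Csf3r (1.53, SE 0.33, adjusted p = 0.004, edgeR) and Mmp9 (-0.89, SE 0.24, adjusted p = 0.0153), 2 of 9 genes, where 8.34% of all tested genes passed. In the first set alone neither passed (1.21 with adjusted p = 0.0698 and -0.95 with adjusted p = 0.0576), and in the second Csf3r did (1.62, adjusted p = 0.00225) and Mmp9 did not (-0.75, adjusted p = 0.0863). The fall of Csf3r and the rise of Mmp9 with aGMCSF were thus measured against aPD1 alone. On top of aIL2RB the fitted changes were 0.19 and -0.06. Markers of other cells passed in the same interaction. Ptprc (1.12), 5 of 6 macrophage markers (median 0.69), 2 of 3 GM-CSF receptor genes and 2 of 6 monocyte markers passed upward. Downward, 1 monocyte marker and 1 of 5 fibroblast markers passed. The part of these markers in the Csf3r and Mmp9 terms was not tested. The interaction was 2.46 for Cxcl3 (adjusted p = 0.0872; it passed with the set in the model, at 2.74 with adjusted p = 0.0372, and with DESeq2, at 2.58 with adjusted p = 0.0402) and 2.65 for Cxcl5 (adjusted p = 0.155). Without aPD1 replicate 4 the Mmp9 term no longer passed (-0.77, adjusted p = 0.05003), and without aPD1 + aIL2RB replicate 9 the terms of Cxcl3 (3.16, adjusted p = 0.0135), Cxcl2 (1.82, adjusted p = 0.0165) and S100a9 (2.63, adjusted p = 0.0422) passed too. Over the 37 fits with 1 tumor left out, Cxcl3 passed in 2, Cxcl2 in 1 and S100a9 in 1. At the other end their terms were 2.16, 1.04 and 1.75, and their adjusted p reached 0.173, 0.323 and 0.224 (edgeR).

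**Figure D3:**
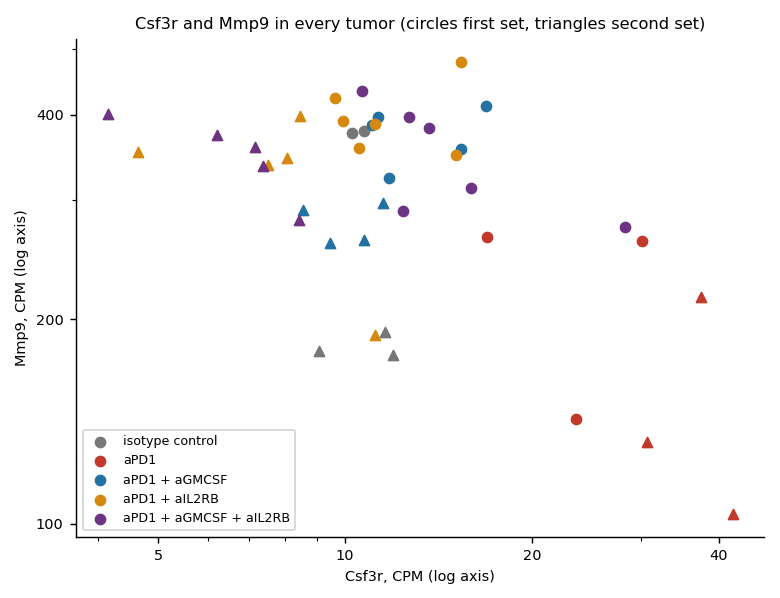
Csf3r (horizontal) against Mmp9 (vertical) in every tumor, both in CPM on log axes, with groups by colour and circles for first-set, triangles for second-set tumors. The 6 aPD1 tumors lie to the right, at 16.9 to 42.2 CPM of Csf3r and 103 to 264 CPM of Mmp9, and 1 other tumor, aPD1 + aGMCSF + aIL2RB replicate 1, exceeds 16.9 CPM of Csf3r, at 28.3 CPM.

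The 2 sets of tumors gave the same directions for the genes that passed with aGMCSF, with fewer calls. In the first set (3 aPD1 and 5 aPD1 + aGMCSF tumors) none of the 7 passed by edgeR, and in the second (3 and 4 tumors) Csf3r, Cxcl3 and Mmp9 did. Such counts are given without the share of all tested genes passing in the same fits. They are not read as a result about these genes. Csf3r after aPD1 was at 23.5 ± 6.56 CPM in the first set and 36.8 ± 5.83 CPM in the second (SD, n = 3 each), and after aPD1 + aGMCSF at 13.3 ± 2.67 (SD, n = 5) and 10.1 ± 1.31 CPM (SD, n = 4). Its fall with both antibodies was larger in the second set, -2.49 (adjusted p = 1.09e-08) against -0.58 (adjusted p = 0.15, not passing) in fits of each set, and by -1.89 in the test of the difference over all tumors (SE 0.34, adjusted p = 0.000962, edgeR interaction), where 9.18% of tested genes passed. Mmp9 in the isotype tumors was at 378 ± 2.02 CPM in the first set (SD, n = 2) and 183 ± 7.73 CPM in the second (SD, n = 3). With treatment in the model, Mmp9 (-0.37) and Csf3r (-0.44) were lower and Cxcl2 (0.70) higher in the second set.

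Other genes of the neutrophil programme and of the CXCR2 axis were counted in lists. The aPD1 + aGMCSF against aPD1 values are given first, then counts for the other comparisons. Of 12 genes of the neutrophil surface and of activation, many of them also expressed by monocytes and macrophages, 9 fell and none rose, with a median of -1.15, where 8.75% of all tested genes fell. They included Slpi, a secreted protease inhibitor (-2.28, SE 0.59, adjusted p = 0.00768, edgeR), and Clec4d and Clec4e, C-type lectin receptors (-1.69 and -1.57). Of 13 granule and maturation genes 6 were counted well enough to test, of which Ctsg, cathepsin G (-2.99, SE 0.78, adjusted p = 0.00914), and Mmp8, neutrophil collagenase (-1.82, adjusted p = 0.0475), fell. Ctsg had no count in any of the 11 aPD1 + aIL2RB tumors. The falls were not limited to aGMCSF. Against aPD1, 8 of the 12 surface and activation genes fell with aIL2RB and 8 with both antibodies. Of the 6 granule and maturation genes tested, 2 and 4 fell, where 14.5% and 14.3% of all tested genes fell. In aPD1 against isotype control 5 of the 12 surface and activation genes rose, where 6.17% of all tested genes did.

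Of the other chemokines and receptors of the axis, 4 of 6 were tested and 2 fell: Ppbp, which encodes another CXCR2 ligand of the cluster (-1.66, SE 0.45, adjusted p = 0.00983, edgeR), and Pf4, platelet factor 4 (-0.67, adjusted p = 0.00488). Cxcr1 had counts in 1 tumor. Of 15 growth factors and inducers of the ligands, 11 were tested and 6 fell, none rising, against 8.75% of all tested genes that fell. Il1a (-1.47, adjusted p = 0.026) and Tnf (-1.18, SE 0.26, adjusted p = 0.00211) were the largest, ahead of the IL-1 receptor Il1r1 (-0.66) and Nfkbiz, a nuclear cofactor of NF-κB (-0.43). Il1b was at 19.1 ± 4.24 CPM (SD, n = 6) after aPD1 and 12.2 ± 4.86 CPM (SD, n = 9) after aPD1 + aGMCSF and did not pass (-0.65, adjusted p = 0.148). Csf3, which encodes G-CSF, had no count in any isotype control or aPD1 tumor and at most 4 in any other. Of the 11 growth factors and inducers tested, 6 fell against aPD1 with aIL2RB and 7 with both antibodies. Of the 4 axis genes tested, 1 fell with aIL2RB and 1 with both, where 14.5% and 14.3% of all tested genes fell.

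**Figure D4:**
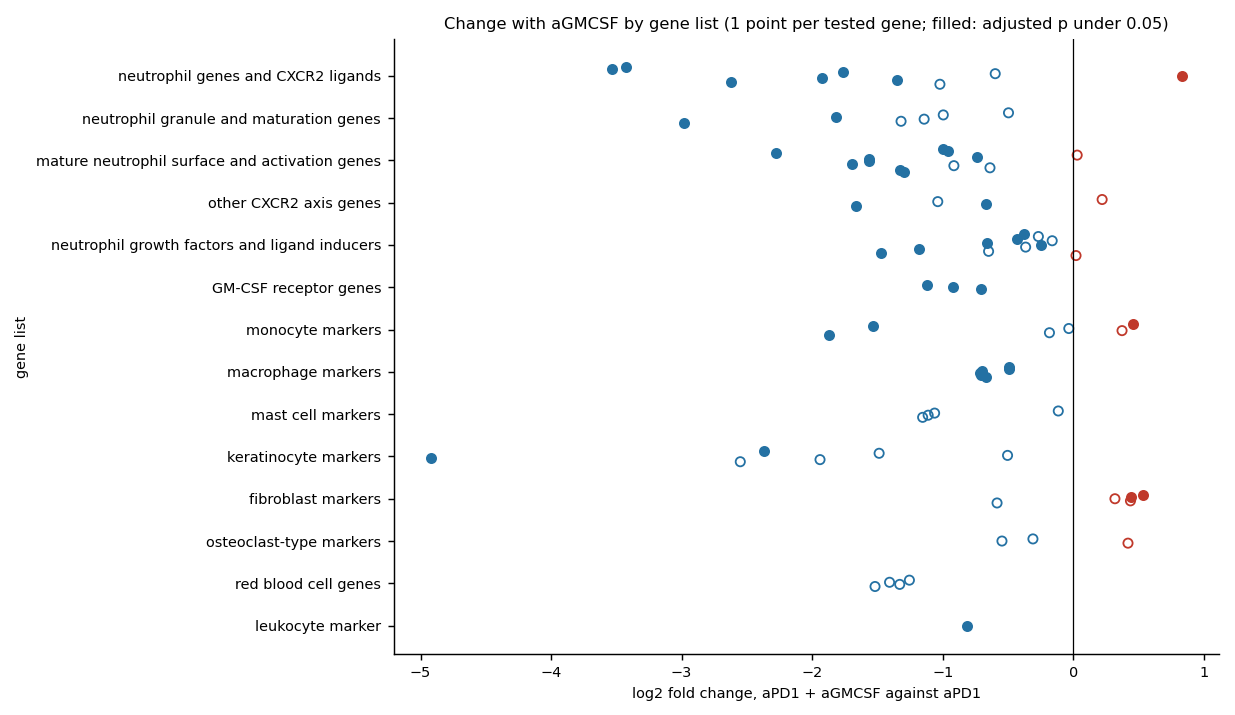
Log2 fold change of each tested gene in aPD1 + aGMCSF against aPD1 (horizontal axis), 1 point per gene, by gene list (vertical axis), filled where the adjusted p is under 0.05, red above and blue below 0. Of the neutrophil genes and CXCR2 ligands 6 fell and 1 rose, of the macrophage markers 6 of 6 fell, and of the fibroblast markers 2 of 5 rose.

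Markers of other cells moved in the same comparison. All 6 macrophage markers fell (Adgre1, C1qa, C1qb, C1qc, Csf1r and Mrc1), and their summed level was 1517 to 2660 CPM after aPD1 against 1173 to 1406 CPM after aPD1 + aGMCSF. All 3 GM-CSF receptor genes fell (Csf2rb2 -1.12, Csf2rb -0.92, Csf2ra -0.71), as did the pan-leukocyte gene Ptprc (-0.81, adjusted p = 0.00797, edgeR), from 205 to 412 CPM down to 142 to 229 CPM. Against aPD1 all 3 GM-CSF receptor genes also fell with aIL2RB (median -1.05) and with both antibodies (median -1.17). Of 6 monocyte markers Ly6c2 (-1.88) and Plac8 (-1.53) fell and Fn1 rose (0.46). Of 5 fibroblast markers Dcn (0.53) and Pdgfrb (0.44) rose. None of the 4 mast cell markers and of the 3 osteoclast-type markers passed, and the 4 eosinophil markers were too low to test.

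The keratinocyte list summed to 3.72 to 37.1 CPM after aPD1 and 3.02 to 6.63 CPM after aPD1 + aGMCSF, with 2 of 6 genes lower, and Krt1 was at 0 in all 5 isotype tumors. The red blood cell list summed to 13.7 to 653 CPM and 28.8 to 90.5 CPM, with none of 4 tested genes passing. The part of skin and blood in the results was not tested beyond leaving out tumors. Without the 4 tumors high in keratinocyte genes, 7 of the 9 genes still passed with aGMCSF, with changes of -1.56 for Csf3r, -1.63 for Cxcr2, -2.39 for S100a9, -2.01 for Cxcl2, -3.64 for Cxcl3, -3.05 for Cxcl5 and 0.90 for Mmp9. Without the 2 tumors high in hemoglobin 7 passed as well, Cxcl5 at -2.82 (adjusted p = 0.0461) and S100a9 at -2.14 (adjusted p = 0.0448) nearest to the threshold.

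Among themselves, the genes varied together within groups in some pairs. After the mean of each group within each set was subtracted from log2 CPM, 9 of 45 pairs passed a permutation test of Pearson's r over 42 tumors (100000 draws within group and set, adjusted over the 45 pairs), 7 positive and 2 negative, and 9 passed with Spearman's rho, 8 of them the same pairs. Cxcl2 took part in most of them. Cxcl2 and Cxcl3 had r = 0.70 (permutation p = 0.00012, adjusted p = 0.0027; rho = 0.65), and r = 0.62 without the 2 tumors farthest out in Cxcl2. Within the first set r was 0.77 and within the second 0.65. The few reads these genes shared enter both values.

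Cxcl1 and Cxcl2 had r = 0.64 (permutation p = 0.00025, adjusted p = 0.0037; rho = 0.54; 0.58 without the 2 farthest), with 0.57 in the first set and 0.77 in the second. Without regard to the sets r was 0.39. Mmp9 ran against Cxcl2 and Cxcl3, with r = -0.70 with Cxcl2 (permutation p = 0.00011, adjusted p = 0.0027; rho = -0.63; -0.61 without the 2 farthest; -0.49 and -0.85 in the sets) and -0.61 with Cxcl3 (adjusted p = 0.019, permutation; rho = -0.51). With Cxcl1 (-0.46, adjusted p = 0.068, permutation) and Cxcl5 (-0.48, adjusted p = 0.062, permutation) it did not pass. S100a8 and Cxcl2 (r = 0.57), S100a9 and Cxcl2 (0.53), S100a9 and Cxcl3 (0.53), Cxcr2 and Cxcl2 (0.41), and Cxcl3 and Cxcl5 (0.49) made up the other pairs. For S100a9 and Cxcl2 rho did not pass (0.44, adjusted p = 0.076). Csf3r was in none of the 9 pairs.

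**Figure D5:**
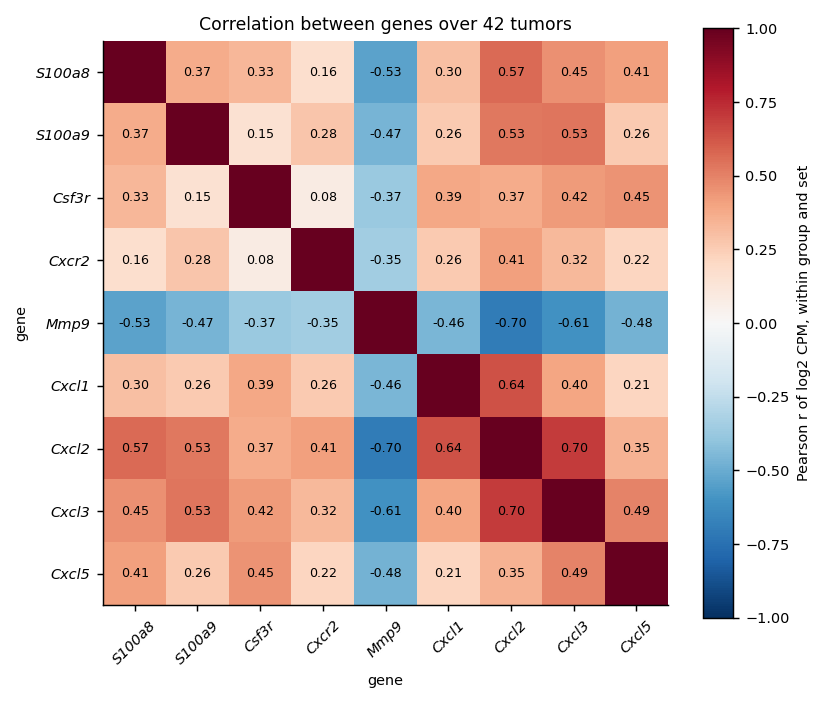
Pearson r (colour and number) between the log2 CPM of the 9 tested genes over 42 tumors after subtracting the mean of each group within each set; both axes list the genes. The block of Cxcl1, Cxcl2 and Cxcl3 is positive, with r = 0.70 for Cxcl2 and Cxcl3, and Mmp9 is negative with Cxcl2 (r = -0.70) and Cxcl3 (r = -0.61).

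As a description, the tested genes outside the 10 with the most similar deviations over the 42 tumors were, for Csf3r, Sema4d (r = 0.84), Lrrc25 (0.82) and Prex1 (0.81). For Mmp9 they were Tgfb3 (0.88), Sec16b (0.86) and Mxra8 (0.85). For Cxcl1 they included Clec4e (0.82) and Ccl2 (0.79), and they were for Cxcl2 Plaur (0.85), Ptgs2 (0.80) and Clec4d (0.80), and for Cxcl3 Plin2 (0.79), Actb (0.77) and Adam8 (0.74). The genes of few counts had weaker likenesses, at most 0.63 for S100a8 (Sms, Ehd1, Kank1), 0.69 for S100a9 (Bloc1s4, Clptm1l, Dlgap1), 0.68 for Cxcr2 (Wdr55, Dnajb11, Exosc8) and 0.69 for Cxcl5 (Pi16, Lgi2, Fcna).

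Per length of the principal transcript, the genes kept a wide order of levels. In the aPD1 tumors the mean per kilobase was 58.7 CPM for Mmp9, 9.11 for Cxcl1, 8.65 for Csf3r, 5.25 for Cxcl2, 2.86 for Cxcl3, 1.72 for S100a9, 0.982 for S100a8, 0.322 for Cxcr2, 0.313 for Cxcl5 and 0.0282 for Retnlg. Cxcl1 exceeded Cxcl2 per kilobase in 40 of 42 tumors and Cxcl2 exceeded Cxcl3 in all 42. After aPD1 + aGMCSF the ligands stood at 6.01 for Cxcl1, 1.53 for Cxcl2, 0.235 for Cxcl3 and 0.0282 for Cxcl5, in the same order.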

How the data were processed

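Per the labels, 42 MC38 tumors were sequenced as poly(A) libraries. The authors aligned the reads with bowtie 1.2.3 to founder-strain transcriptomes on GRCm38 and deposited expected counts per gene (gbrs), not normalized. Expected counts can split reads between similar genes. Here they were rounded, genes of low count removed (edgeR filterByExpr, at least 10 counts, 15 in all), libraries scaled by TMM and all 42 tumors fitted by group with edgeR 4.0.16 (quasi-likelihood), p-values adjusted over 16932 genes and called under 0.05. SE is the log2 fold change divided by the root of the F statistic, and 95% intervals use the normal quantile. CPM uses the TMM-scaled totals, and correlations use log2 CPM with a prior count of 2. DESeq2 1.42.0, the tool of the study's methods, other scalings, filters and subsets were alternatives. Scripts were tested on simulated data. Symbols and positions are from GENCODE's annotation of GRCm38 (26629 of 26811 IDs matched) and promoters from RefSeq's GRCm38.p6.

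The 10 genes, the lists, the sets and the tests were chosen with earlier results of these data known. All 10 genes are named; of each list the counts and at most the 4 largest changes that passed are named, or genes a role needs; and the 3 most alike genes of each; 1 gene that these rules would name is not reported here. The tumors of a group are labelled as biological replicates. Counting floors cover counting error only. No 2 tumors of a group were copies (lowest chi-square per degree of freedom 5.64).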

Additional observations from a re-analysis of the deposited data

Results flagged for a closer look

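The change of Csf3r with aGMCSF differed with and without aIL2RB by 1.53 on the log2 scale (adjusted p = 0.004, edgeR), as a tested interaction, and that of Mmp9 by -0.893 (adjusted p = 0.0153). In the first set alone neither passed, and in the second only Csf3r did. Ptprc (1.12) and 5 of 6 macrophage markers (median 0.69) passed upward in the same interaction over all tumors. Their part in it was not tested. The change of Csf3r with both blocking antibodies against aPD1 differed between the second and the first set of tumors by -1.89 (adjusted p = 0.000962, edgeR). In 3 of 30 groups of 5 to 9 tumors a single tumor lay outside the rest, by a rule with a chance rate of about 1 in 20. That rate does not hold where the other tumors are tied at 0, as in all 3 here. All 3 were Retnlg, in which 1 tumor of the group had 2 or 3 counts and the others none, so that the gap took up the whole range (a ratio of 1.0): isotype control replicate 1 (0.0944 CPM), aPD1 replicate 3 (0.101 CPM) and aPD1 + aGMCSF replicate 9 (0.16 CPM).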

How the results depend on the processing

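Directions of the calls with aGMCSF against aPD1 held in every alternative run. The counts that follow are given without the share of all tested genes passing in the same fits. The number of the 9 genes called there was 7 and went to 3 with at least 10 counts in every tumor (fewer genes tested), 0 in the first set alone and 3 in the second (fewer tumors); leaving out 1 tumor gave 6 to 7, DESeq2 6 and the fit of these 2 groups alone 5. For aPD1 against isotype control the count of 1 went to 0 in the first set. For aPD1 + aIL2RB against aPD1 the count of 3 was 2 with at least 10 counts in every tumor and in the second set, and 4 without aPD1 + aIL2RB replicate 2 or 9. For both antibodies against aPD1 the count of 5 went to 3 with at least 10 counts in every tumor and 2 in the first set. For the interaction the count of 2 went to 0 in the first set and 1 in the second, and to 1 to 5 with 1 tumor left out; Cxcl3 passed with DESeq2 (2.58, adjusted p = 0.0402) and at 2.74 where the model held the set (adjusted p = 0.0372). Leaving out the tumors high in skin or blood genes, chosen after seeing the data, left 4 of the 5 calls for both antibodies, Cxcr2 being lost at -1.03 (adjusted p = 0.107) and -1.01 (adjusted p = 0.101). No same-numbered tumors are stated to share a mouse, litter or day, and their deviations were not all correlated (r from -0.17 to 0.18), so the replicate number was an alternative only: with the replicate block the counts stayed at 1, 7, 0, 3, 5, 0 and 2.

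Signs turned only for changes that had not passed. In the first set these were S100a8 (0.96), Mmp9 (-0.012) and Cxcl2 (0.069) in aPD1 + aGMCSF against isotype control, and S100a8 (0.53), S100a9 (0.91), Cxcl2 (0.32) and Cxcl3 (0.64) in aPD1 + aGMCSF + aIL2RB against aPD1 + aIL2RB. In the second set they were S100a8 (-0.41) and S100a9 (-0.094) in aPD1 against isotype control, Csf3r (-0.12) in aPD1 + aGMCSF against isotype control, S100a8 (0.90) and S100a9 (0.11) in aPD1 + aIL2RB against aPD1, Csf3r (-0.26) and Mmp9 (0.11) between the groups given aIL2RB, and S100a8 (-0.80) in the interaction. With the replicate block Cxcl1 turned to 0.036 in aPD1 + aGMCSF against isotype control. Without the tumors high in keratinocyte genes and without those high in hemoglobin, S100a8 turned to -0.086 and -0.39 in aPD1 against isotype control, 0.37 and 0.76 in aPD1 + aIL2RB against aPD1, 0.14 and 0.35 with both antibodies against aPD1, and -0.13 and -0.61 in the interaction; Cxcl5 turned to 0.14 and 0.11 in aPD1 + aIL2RB against aPD1; and without the second kind S100a9 turned to -0.19 in aPD1 against isotype control and S100a8 to 0.21 in aPD1 + aGMCSF against aPD1. With 1 tumor left out, S100a8 ran from -0.39 to 1.31 (aPD1 against isotype control), -1.28 to 0.22 (aPD1 + aGMCSF against aPD1), -0.48 to 0.29 (aPD1 + aGMCSF against isotype control), -0.92 to 0.77 (aPD1 + aIL2RB against aPD1), -1.04 to 0.45 (both against aPD1), -0.49 to 0.13 (both against aPD1 + aIL2RB) and -0.54 to 1.15 (interaction). S100a9 ran from -0.19 to 0.57 (aPD1 against isotype control) and -0.74 to 0.0018 (both against aPD1 + aIL2RB), Cxcl5 from -0.87 to 0.13 (aPD1 + aIL2RB against aPD1), Cxcl1 from -0.20 to 0.058 (aPD1 + aGMCSF against isotype control), -0.39 to 0.071 (both against aPD1) and -0.044 to 0.27 (both against aPD1 + aIL2RB), and in the last of these Csf3r from -0.045 to 0.28 and Cxcl2 from -0.70 to 0.057. Depth limited S100a8, S100a9, Cxcr2, Cxcl3, Cxcl5 and Retnlg, each of which had no count in at least 1 tumor.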
